A study of Mus musculus with 20 samples.

Results

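The Rab GTPases are the genes whose platform symbol is Rab followed directly by a number and an optional letter. Of the 17771 genes on the deposited table, 58 met this rule, each through 1 probe set. Of the 58, 50 were bright enough to be tested, and the other 8 (Rab12, Rab30, Rab39b, Rab3c, Rab40b, Rab42, Rab8b and Rab9b) lay below the 40th percentile of the array on all 20 arrays.

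Rab proteins are small GTPases that sit on the membranes of vesicles and organelles in their GTP-bound form and recruit the proteins that move, tether and fuse these membranes. Guanine nucleotide exchange factors (GEFs) load them with GTP, GTPase-activating proteins (GAPs) end the active state, and different Rabs mark different compartments, from the endoplasmic reticulum and Golgi to endosomes, lysosomes and secretory granules. Eosinophils, the granulocytes of allergic inflammation, store cationic proteins and cytokines in granules and release them by piecemeal vesicle traffic and by granule fusion.

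The cells were eosinophils grown from mouse bone marrow, taken on day 12 of culture, and RNA was measured on 20 one-colour arrays. Wild-type cells came from 5 Dusp5+/+ mice and knockout cells from 5 Dusp5-/- mice. Dusp5 encodes a nuclear phosphatase of the MAP kinases ERK1 and ERK2. Cells of each genotype stayed in medium (untreated) or received 25 ng/ml of the alarm cytokine IL-33 for 4 hours, which gave 4 groups of 5 arrays. Treatment was taken from the treatment field of the labels, because the titles of all 10 IL-33 arrays carry the word Dusp5 where those of the untreated arrays name the treatment. The labels used here give neither strain, age and sex of the mice nor the part of Dusp5 that was deleted.

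All levels below are log2 signals as deposited, listed for arrays 1 to 5 of a group. The array number was taken as the mouse, for the reasons given with the processing. Changes are log2 differences ± SE with the wild-type value first. The array medians lay between 4.25 and 4.32, the 40th percentile between 3.56 and 3.68, and arrays of 1 group correlated at 0.987 to 0.997. The Dusp5 signal was at most 5.15 on a knockout array and at least 7.85 on a wild-type array, and the 2 genotypes were thus apart on all arrays. The labelled cell type was checked with 5 defining markers, all above the percentile in each group (summed level 14.44 to 14.96), of which 2 were lower with IL-33 in each genotype. Markers of other marrow cells were also present: all 9 neutrophil markers on the table lay above the percentile in each group (summed level 13.64 to 14.51), while 4 of 6 lymphocyte markers lay below it. With IL-33, 2 monocyte, macrophage and dendritic cell markers of 8 were higher and 2 were lower in wild-type cells, and 2 and 3 in knockout cells. Their summed level ran from 12.16 to 12.93 on untreated arrays and from 12.64 to 13.35 after IL-33. Of 6 stem and progenitor markers 4 were lower with IL-33 in each genotype (summed level 10.19 to 10.45 untreated, 9.77 to 10.23 after IL-33). Of 7 mast cell and basophil markers tested 1 was higher and 2 (wild-type) or 3 (knockout) were lower. The summed level of the 8 on the table was 13.48 to 13.70 untreated and 13.22 to 13.59 after IL-33. Group means were 12.55 to 12.71 for Cpa3, 11.32 to 11.79 for Mcpt8 and 3.84 to 4.26 for Tpsb2 and Cma1. Among erythroid and megakaryocyte markers 4 of 6 were tested (summed level 11.79 to 12.24, with Pf4 at a mean of 11.33 to 11.46 and Itga2b at 10.13 to 10.43 per group), of which 1 was lower with IL-33 in knockout cells and none was called in wild-type cells. Of the 2 lymphocyte markers tested 1 was higher with IL-33 in wild-type cells. No neutrophil marker was called. Over all 11766 genes tested 16.1% were higher and 26.7% lower with IL-33 in wild-type cells, and 18.9% and 33.2% in knockout cells. The part of other marrow cells in the Rab changes was not tested.

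The first question was how the Rab family responds to IL-33. In wild-type cells 10 Rab genes rose and 14 fell, and in knockout cells 11 rose and 14 fell. Each was called at an adjusted p under 0.05 in limma without a mouse term. A random mouse block added 5 and 6 Rab calls and a fixed block 7 and 6, and neither lost any. Over all genes the random block raised the share called from 42.7% to 56.9% in wild-type cells. In knockout cells that share rose from 52.2% to 65.4%. The share of all genes called with the fixed block was not counted. Rab20, a Rab of endosomes and phagosomes, and Rab38, a Rab of lysosome-related organelles, rose the most. Rab7b, which works between late endosomes and the Golgi, and Rab19, a Golgi Rab, fell the most. The 24 called Rab genes in wild-type cells were 48.0% of those tested, against 42.7% of all 11766 genes tested (16.1% higher, 26.7% lower). In knockout cells the 25 of 50 stood beside 52.2% of all genes (18.9% higher, 33.2% lower). The median Rab change lay at -0.06 in wild-type and at -0.10 in knockout cells, beside -0.05 and -0.08 over all genes, so the family as a whole was called about as often as other genes and individual members moved in opposite directions. Treated and untreated arrays did not overlap for 12 of the 50 Rab genes in wild-type and for 20 in knockout cells. Over all genes this held for 28.3% and 38.5%. In these bulk samples, fewer cells of a type and less RNA per cell cannot be told apart.

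Both genotypes called 21 of the 50 Rab genes, 9 higher and 12 lower, beside 4577 of all 11766 genes. No Rab gene was called in opposite directions. Rab23, Rab43 and Rab7 were called in wild-type cells alone. Rab15, Rab27a, Rab36 and Rab5b passed in knockout but not in wild-type cells. A direct test of whether the 2 responses differ, given further on, called none of these 7. With the mouse as a random block, which called 56.9% of all genes in wild-type and 65.4% in knockout cells, 5 of the 7 (Rab23, Rab27a, Rab36, Rab5b and Rab7) passed in both genotypes, and with a fixed block 4 did (the same without Rab23). The remaining 22 tested Rab genes passed in neither genotype, among them Rab11a, Rab14, Rab18, Rab1b, Rab2a, Rab32, Rab33b, Rab35 and Rab8a. Of these 22, the random block left 16 and the fixed block 15 that passed in neither. Of the 21 called in both, 16 (76.2%) had the larger change in knockout cells, beside 78.1% of the 4577 genes called in both genotypes overall. The 5 exceptions were Rab19, Rab33a, Rab38, Rab3d and Rab5c.

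**Figure D1:**
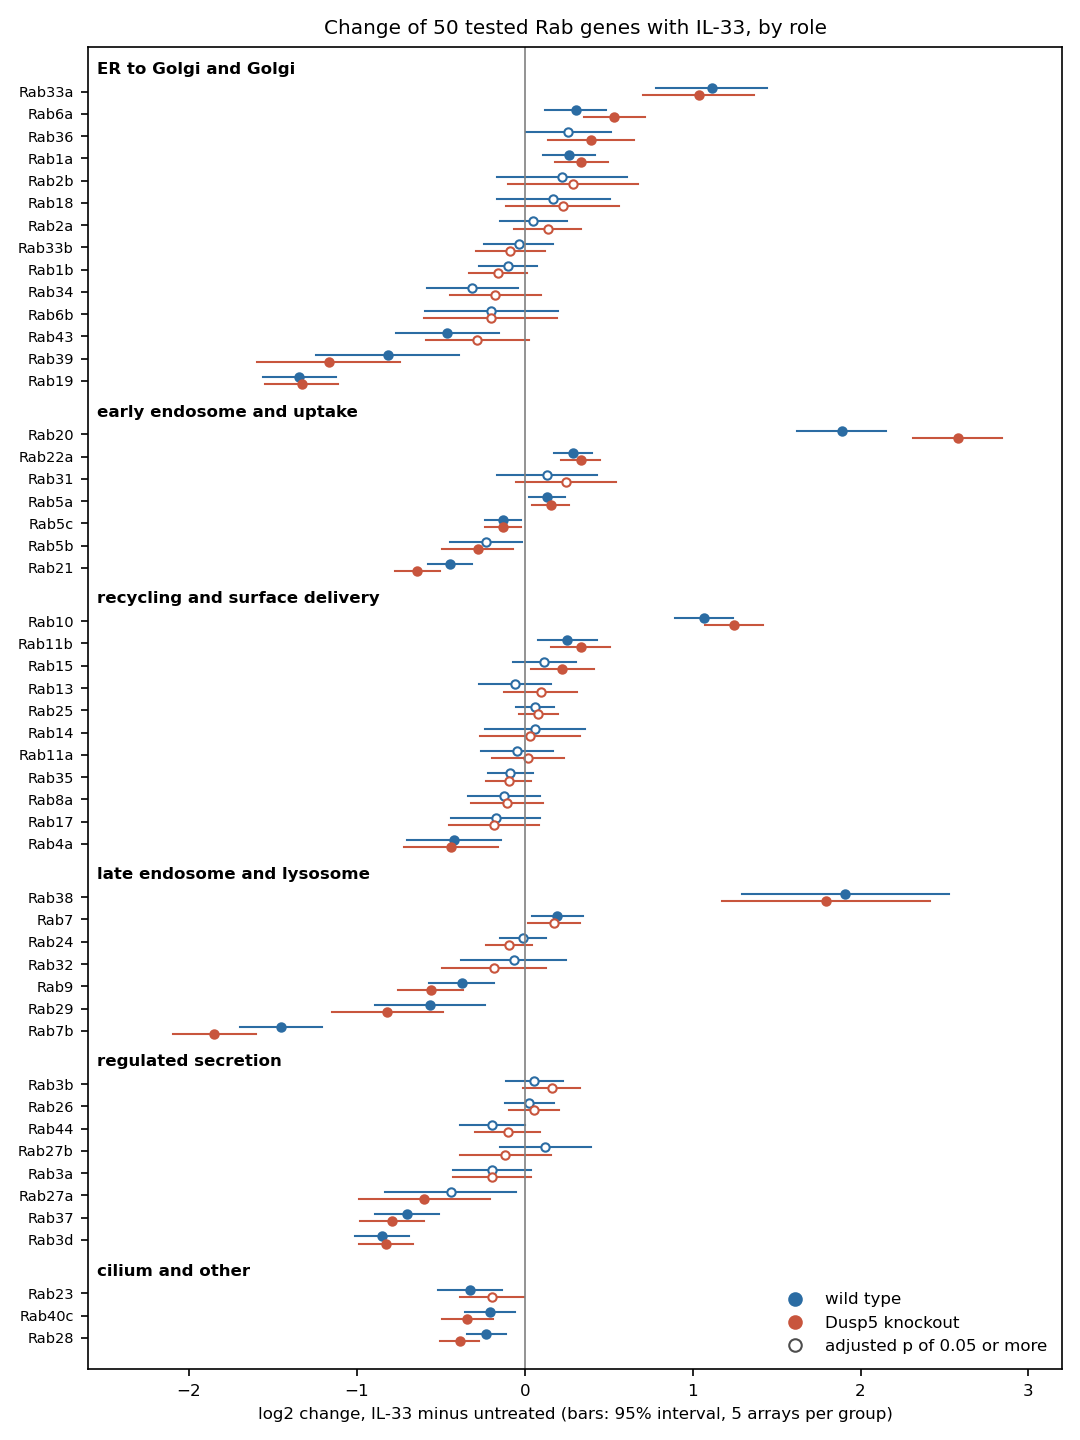
Change with IL-33 (log2, IL-33 minus untreated) of the 50 tested Rab genes in wild-type and in knockout cells, grouped by compartment, with bars for the 95% interval of the limma fit. Rab20 and Rab38 lie farthest to the right and Rab7b and Rab19 farthest to the left in both genotypes, and most other members lie close to 0.

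The promoters of Rab20 and Rab10 are shown because these were the 2 Rab genes called between the genotypes after IL-33. RefSeq promoter entries (assembly GRCm38.p6) existed for 47 of the 58 genes, and the 250 bases before the start were read. Rab20 lies on the minus strand with its window at chr8:11478641-11478890, and Rab10 on the minus strand with its window at chr12:3309970-3310219. Both run 5′ to 3′ in the sense of the gene, and capitals mark the motif matches.
Rab20: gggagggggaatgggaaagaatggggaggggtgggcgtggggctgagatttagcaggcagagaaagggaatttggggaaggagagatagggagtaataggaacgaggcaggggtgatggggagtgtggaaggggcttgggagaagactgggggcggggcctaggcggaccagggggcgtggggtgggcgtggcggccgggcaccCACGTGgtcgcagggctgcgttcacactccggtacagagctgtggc
Rab10: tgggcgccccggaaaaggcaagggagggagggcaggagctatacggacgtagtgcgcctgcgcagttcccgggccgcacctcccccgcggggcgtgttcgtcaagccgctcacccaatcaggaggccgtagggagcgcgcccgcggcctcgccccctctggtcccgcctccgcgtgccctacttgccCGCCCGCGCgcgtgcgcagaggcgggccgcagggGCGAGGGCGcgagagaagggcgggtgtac
Rab20 holds 1 E-box (CACGTG, a site for Myc and for the MiT/TFE factors of lysosomal genes), which starts 46 bases before the gene. Rab10 holds 2 matches to the EGR motif GCGNGGGCG, the site of the zinc-finger factors that ERK signalling induces, which start 63 and 29 bases before the gene and do not overlap. Both strands were searched. The windows of Rab33a, Rab19 and Rab3d, extracted as well, held no match to any of the 4 motifs. The E-box was in 4 of 47 Rab promoters (8.5%: Rab20, Rab21, Rab23 and Rab5a) and 6.0% of all 27025 promoters, and the EGR motif in 4 of 47 (8.5%: Rab10, Rab1b, Rab22a and Rab39) and 4.7%. The NF-kB consensus was in 2 (4.3%: Rab11a and Rab28), against 7.0% of all, and the AP-1 motif TGANTCA in 1 (2.1%: Rab34), against 6.9%. Of the 10 promoters of Rab genes that rose in either genotype none held the NF-kB or AP-1 motif and 2 each held the E-box and the EGR motif. Of the 13 promoters of Rab genes that fell in either genotype 2 held the E-box, 1 the EGR motif, 1 the NF-kB motif and none the AP-1 motif. Of the 17 of Rab genes called in neither genotype 1 each held the NF-kB, EGR and AP-1 motifs and none the E-box. A match describes the letters of the window alone.

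Among the 7 early endosome Rabs, all tested, 3 rose and 2 fell in wild-type cells and 3 rose and 3 fell in knockout cells. Called were 71.4% and 85.7% of them, beside 42.7% and 52.2% of all genes. Rab20 had the largest rise. Its level in wild-type mice 1 to 5 was 5.70, 5.68, 5.74, 5.71 and 5.81 in medium and 7.52, 7.95, 7.38, 7.67 and 7.56 after IL-33. In knockout mice 1 to 5 it was 5.70, 5.44, 5.15, 5.69 and 5.74 in medium and 7.90, 8.11, 7.82, 8.35 and 8.42 after IL-33. No IL-33 array overlapped an untreated one, and the rise was 1.89 ± 0.13 (SE; 3.70-fold, adjusted p = 3.3e-10) in wild-type and 2.58 ± 0.13 (5.97-fold, adjusted p = 2.0e-12) in knockout cells, with 5 arrays a group.

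Rab21, which carries integrins through early endosomes, moved the other way. Its wild-type levels were 6.73, 6.69, 6.64, 6.78 and 6.65 untreated and 6.43, 6.14, 6.16, 6.29 and 6.23 with IL-33, and its knockout levels 6.81, 6.82, 6.74, 6.70 and 6.77 untreated and 6.18, 6.05, 5.996, 6.21 and 6.21 with IL-33. Every IL-33 array was below every untreated one. Rab21 fell by 0.44 ± 0.06 (adjusted p = 1.2e-05) in wild-type cells and by 0.64 ± 0.06 (adjusted p = 6.2e-08) in knockout cells.

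The 3 Rab5 genes, whose products drive homotypic fusion of early endosomes, changed little. Rab5a read 9.86, 9.999, 9.83, 9.86 and 9.91 in untreated and 10.03, 10.07, 9.99, 9.98 and 10.05 in IL-33-treated wild-type cells, and 9.93, 9.89, 9.95, 9.97 and 10.06 untreated and 10.11, 10.06, 10.11, 10.10 and 10.18 with IL-33 in knockout cells. The wild-type groups overlapped and the knockout groups just met without overlap. Rab5a rose by 0.13 ± 0.05 in wild-type (adjusted p = 0.0472) and 0.15 ± 0.05 in knockout cells (adjusted p = 0.0175), while Rab5c fell by 0.13 in both (adjusted p = 0.0480 and 0.0424). The wild-type calls of both genes depended on which arrays were kept. For Rab5a the call held without untreated wild-type array 2, untreated knockout array 2 or 5, or IL-33 knockout array 3 or 5, and was lost in the other 15 of 20 fits with 1 array left out (adjusted p up to 0.103). For Rab5c it held without IL-33 wild-type array 2 or IL-33 knockout array 3 or 5 and was lost in the other 17 (adjusted p up to 0.112), and its knockout call was lost in 10 (up to 0.104), those without untreated knockout array 1, 2, 4 or 5, treated knockout array 1, 2, 3 or 4, untreated wild-type array 1 or treated wild-type array 4. Rab5b changed by -0.23 ± 0.10 in wild-type cells (adjusted p = 0.0767, 0.0145 with the random and 0.0217 with the fixed mouse block) and fell by 0.28 ± 0.10 in knockout cells (adjusted p = 0.0265), a call that was lost without untreated knockout array 4 or 5 or IL-33 knockout array 2 or 3 (adjusted p up to 0.0895). Rab22a, which returns surface proteins from endosomes, rose by 0.29 (adjusted p = 2.7e-04) and 0.33 (adjusted p = 3.8e-05). Rab31 passed in neither genotype (0.13 and 0.25).

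Of the 13 Rabs of recycling and delivery to the surface 11 were tested. In wild-type cells 2 rose (Rab10 and Rab11b) and 1 fell (Rab4a), and in knockout cells Rab15 rose as well. This was 27.3% and 36.4% of those tested, beside 42.7% and 52.2% of all genes. Rab10, which brings vesicles to the plasma membrane, for example those with Toll-like receptor 4 in macrophages, read 8.34, 8.44, 8.13, 8.22 and 8.19 in untreated and 9.32, 9.63, 9.18, 9.36 and 9.20 in IL-33-treated wild-type cells. Its knockout levels were 8.24, 8.45, 8.42, 8.48 and 8.44 untreated and 9.58, 9.75, 9.58, 9.65 and 9.71 after IL-33. Every IL-33 array lay above every untreated array of its genotype, and the rise was 1.07 ± 0.08 (2.10-fold, adjusted p = 2.5e-09) and 1.25 ± 0.08 (2.38-fold, adjusted p = 1.7e-10).

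Rab8a, a close relative of Rab10, changed by -0.12 ± 0.10 in wild-type and -0.10 ± 0.10 in knockout cells and passed in neither (adjusted p = 0.351 and 0.413); whether the 2 probe sets differ in their change was not tested. Rab11a, which marks the recycling endosome, had wild-type levels of 11.23, 11.61, 11.06, 11.34 and 11.29 untreated and 11.20, 11.53, 11.03, 11.31 and 11.22 with IL-33. Its knockout levels were 11.28, 11.62, 11.31, 11.51 and 11.58 untreated and 11.38, 11.57, 11.36, 11.53 and 11.54 with IL-33. The treated and untreated groups overlapped almost wholly, with changes of -0.05 ± 0.10 and 0.02 ± 0.10 that passed in neither genotype (adjusted p = 0.740 and 0.900). Rab11b rose by 0.25 ± 0.08 (adjusted p = 0.0196) in wild-type and 0.33 ± 0.08 (adjusted p = 0.00232) in knockout cells. The wild-type call of Rab11b was lost without untreated array 3 (adjusted p = 0.0669) or IL-33 array 3 or 5 (0.0535 and 0.0525). Rab4a, of the fast recycling route, fell by 0.42 ± 0.13 (adjusted p = 0.0157) and by 0.44 ± 0.13 in knockout cells (adjusted p = 0.00986). Rab15 rose by 0.22 in knockout cells alone (adjusted p = 0.0410, lost in 5 of 20 fits with 1 array left out, those without untreated knockout array 2, 4 or 5 or IL-33 knockout array 2 or 3, adjusted p up to 0.136).

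In the Golgi set 14 of 16 Rabs were tested, of which 3 rose and 3 fell in wild-type cells and 4 rose and 2 fell in knockout cells. Each genotype called 42.9% of them, beside 42.7% of all genes in wild-type and 52.2% in knockout cells. Rab33a, a Golgi and secretory vesicle Rab best known from neurons, read 5.18, 5.19, 4.62, 5.25 and 4.64 in untreated and 6.24, 6.28, 5.70, 6.36 and 5.87 in IL-33-treated wild-type cells. In knockout cells it read 5.30, 4.76, 5.42, 5.30 and 4.96 untreated and 6.21, 6.07, 6.02, 6.44 and 6.18 with IL-33. Neither genotype showed overlap, and the rise was 1.11 ± 0.16 (adjusted p = 1.1e-05) and 1.03 ± 0.16 (adjusted p = 1.7e-05). Its paralog Rab33b, which binds the autophagy protein Atg16l1, changed by -0.04 ± 0.10 and -0.09 ± 0.10 and was not called (adjusted p = 0.798 and 0.481). The 2 genes were not compared by a test.

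Rab6a, of traffic from endosomes through the Golgi to the endoplasmic reticulum, read 8.49, 8.39, 8.21, 8.47 and 8.40 untreated and 8.70, 8.44, 8.85, 8.70 and 8.80 with IL-33 in wild-type cells. Knockout cells read 8.37, 8.19, 8.38, 8.38 and 8.54 untreated and 9.05, 8.75, 9.004, 8.75 and 8.97 with IL-33 for it. The wild-type groups overlapped through IL-33 array 2, and the knockout groups did not overlap. Rab6a rose by 0.30 ± 0.09 (adjusted p = 0.00814) and 0.53 ± 0.09 (adjusted p = 3.8e-05). Rab1a, of the step from the endoplasmic reticulum to the Golgi, rose by 0.26 (adjusted p = 0.00741) and 0.34 (adjusted p = 8.1e-04), while Rab1b was not called (-0.10 and -0.16, adjusted p = 0.109 in knockout cells). With the mouse as a block Rab1b passed in knockout cells (adjusted p = 0.0140 random, 0.0041 fixed) and, with the fixed block, in wild-type cells (0.0487). Rab36, a Golgi Rab, rose by 0.39 in knockout cells (adjusted p = 0.0106), and its wild-type change of 0.26 (adjusted p = 0.0936) passed with either block (adjusted p = 0.0268 and 0.0483).

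Rab19 showed the deepest fall of this set. Wild-type mice 1 to 5 had Rab19 levels of 7.69, 7.73, 7.30, 7.62 and 7.50 in medium and 6.14, 6.46, 6.21, 6.16 and 6.16 after IL-33. Knockout mice had 7.72, 7.77, 8.17, 7.89 and 7.90 untreated and 6.27, 6.52, 6.72, 6.71 and 6.58 with IL-33. Treated arrays were lower than untreated ones in both genotypes with no overlap, and Rab19 fell by 1.34 ± 0.10 (2.54-fold, adjusted p = 2.5e-09) and by 1.33 ± 0.10 in knockout cells (2.51-fold, adjusted p = 2.0e-09).

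Rab39, a Rab of phagosomes and autophagy in macrophages, read 5.24, 6.02, 4.57, 5.04 and 4.88 untreated and 4.14, 4.66, 4.18, 4.47 and 4.21 with IL-33 in wild-type cells. Its knockout levels were 5.18, 5.90, 5.45, 5.81 and 5.83 untreated and 4.46, 4.59, 4.14, 4.73 and 4.40 with IL-33. Untreated wild-type arrays varied the most, from 4.57 to 6.02, and overlapped the IL-33 arrays, while the knockout groups did not overlap. Rab39 fell by 0.82 ± 0.20 (adjusted p = 0.00296) in wild-type and dropped by 1.17 ± 0.20 (adjusted p = 7.6e-05) in knockout cells. Rab43, of the Golgi, fell by 0.46 ± 0.15 in wild-type cells (adjusted p = 0.0153), which did not pass once untreated array 3 was left out (adjusted p = 0.0522), and changed by -0.28 in knockout cells (adjusted p = 0.114).

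**Figure D2:**
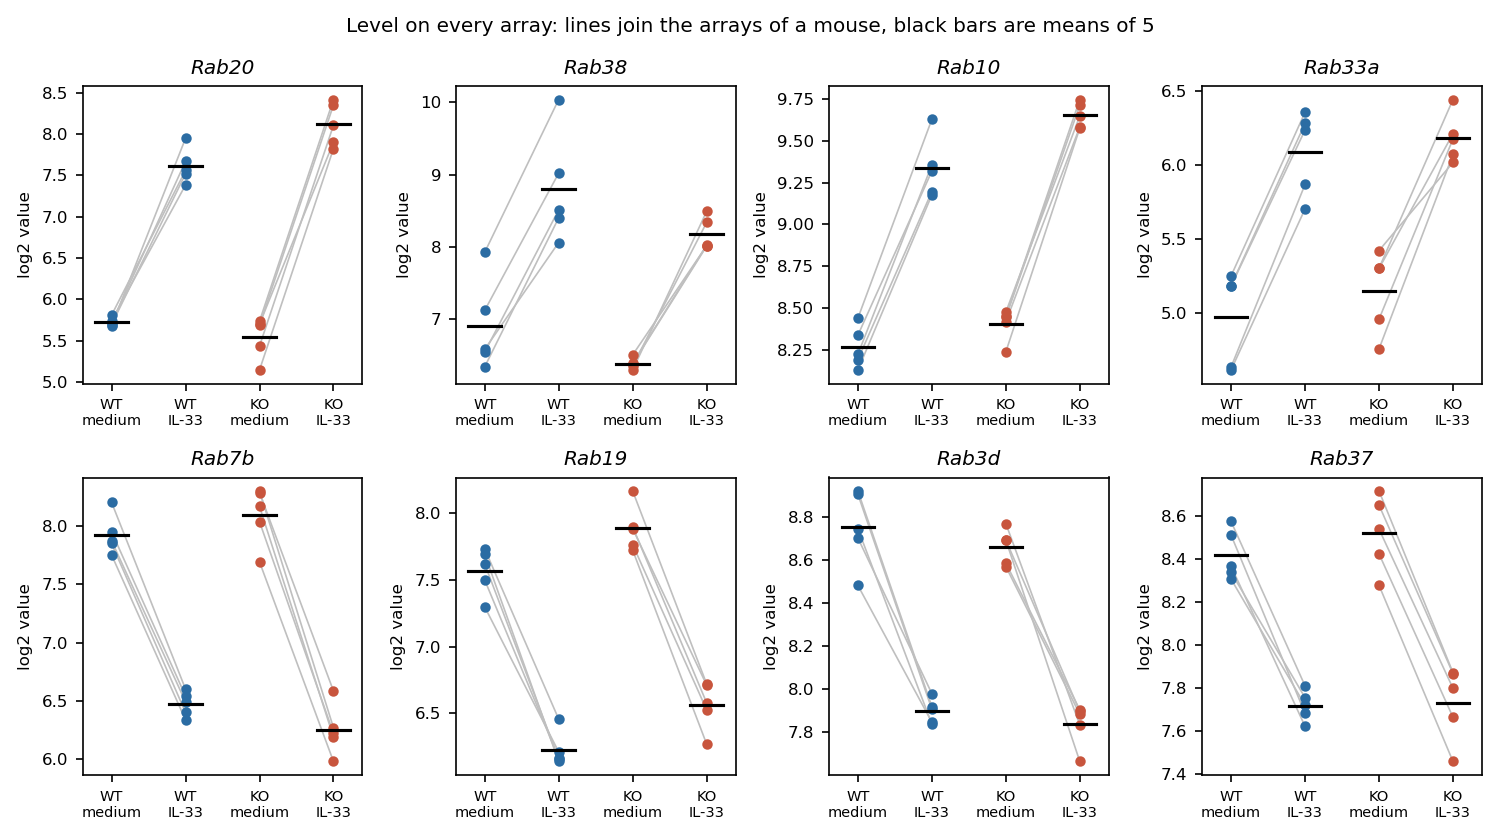
Log2 level of 8 Rab genes on each of the 20 arrays, 1 point per mouse in each of the 4 groups, with the group mean as a line. Rab20, Rab38, Rab10 and Rab33a are higher and Rab7b, Rab19, Rab3d and Rab37 lower after IL-33 in both genotypes without overlap. Of all genes, 28.3% in wild-type and 38.5% in knockout cells show no such overlap. Wild-type mouse 3 stands above the other mice for Rab38 with and without IL-33.

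Late endosomes, lysosomes and the organelles derived from them had 9 Rabs, of which 7 were tested. In wild-type cells 2 rose and 3 fell, and in knockout cells 1 rose and 3 fell. The called share was 71.4% and 57.1%, beside 42.7% and 52.2% of all genes. Rab38 delivers enzymes to lysosome-related organelles such as melanosomes. Its wild-type levels were 6.54, 6.58, 7.92, 6.33 and 7.12 untreated and 8.51, 8.06, 10.04, 8.40 and 9.02 after IL-33. Its knockout levels were 6.29, 6.37, 6.35, 6.38 and 6.50 untreated and 8.49, 8.01, 8.34, 8.02 and 8.01 with IL-33. Wild-type mouse 3 was the highest in both conditions, and every IL-33 array lay above every untreated one of its genotype. The rise was 1.91 ± 0.30 (3.76-fold, adjusted p = 3.0e-05) in wild-type and 1.80 ± 0.30 (3.47-fold, adjusted p = 4.0e-05) in knockout cells. Within mice the wild-type rise ran from 1.48 to 2.12, a narrower range than the levels. Rab32, which acts on the same organelles, changed by -0.07 ± 0.15 and -0.18 ± 0.15 and was not called (adjusted p = 0.749 and 0.312, the latter 0.0136 with the fixed mouse block), and the 2 were not compared by a test.

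Rab7b works on the route from late endosomes to the Golgi and, in macrophages, lowers signalling by Toll-like receptors 4 and 9. It read 7.95, 8.20, 7.87, 7.85 and 7.75 in untreated and 6.54, 6.60, 6.49, 6.40 and 6.34 in IL-33-treated wild-type cells. In knockout cells it read 8.04, 8.17, 7.69, 8.30 and 8.29 untreated and 6.22, 6.19, 5.98, 6.27 and 6.58 with IL-33. The groups lay more than 1 log2 unit apart in both genotypes, and Rab7b fell by 1.45 ± 0.12 (2.74-fold, adjusted p = 5.1e-09) in wild-type and dropped by 1.85 ± 0.12 (3.60-fold, adjusted p = 1.0e-10) in knockout cells.

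Rab7, the general Rab of late endosome and lysosome fusion, had wild-type levels of 9.99, 10.13, 9.77, 10.03 and 9.96 untreated and 10.16, 10.35, 10.03, 10.19 and 10.13 with IL-33. Knockout levels were 9.9999, 10.17, 10.14, 10.29 and 10.24 untreated and 10.27, 10.37, 10.35, 10.38 and 10.34 with IL-33. The treated and untreated groups overlapped in both genotypes. Its rise of 0.19 ± 0.07 in wild-type cells passed the test (adjusted p = 0.0389) but not in the wild-type fits lacking array 1, 3 or 5 of the untreated or array 1, 2 or 4 of the treated cells (up to 0.121). The change of 0.17 ± 0.07 in knockout cells did not pass (adjusted p = 0.0538). It passed with the mouse as a random block (adjusted p = 0.0053, where 65.4% of all genes were called) or a fixed one (0.0044), and when untreated wild-type array 2 or 3, treated wild-type array 2 or 3, untreated knockout array 4 or treated knockout array 1 was left out (down to 0.0364). The difference between the changes of Rab7 and Rab7b was not tested.

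Rab29, which recruits the kinase Lrrk2 to Golgi and lysosomal membranes, read 8.38, 9.10, 8.21, 8.72 and 8.48 and, after IL-33, 8.07, 8.28, 7.72, 8.17 and 7.83 in wild-type cells. In knockout cells the levels were 8.60, 9.13, 8.63, 9.04 and 8.90 untreated and 7.91, 8.26, 7.73, 8.27 and 8.04 with IL-33. The wild-type groups overlapped between 8.21 and 8.28 and the knockout groups did not. Rab29 fell by 0.56 ± 0.16 (adjusted p = 0.00657) and by 0.82 ± 0.16 in knockout cells (adjusted p = 2.1e-04). Rab9, which returns mannose 6-phosphate receptors to the Golgi, read 9.12, 8.87, 9.21, 9.06 and 9.33 untreated and 8.77, 8.45, 8.90, 8.73 and 8.85 with IL-33 in wild-type cells, and 9.13, 8.91, 9.19, 9.02 and 9.08 untreated and 8.68, 8.37, 8.56, 8.47 and 8.45 with IL-33 in knockout cells. A small overlap remained in wild-type cells and none in knockout cells. Rab9 fell by 0.38 ± 0.09 (adjusted p = 0.00271) and by 0.56 ± 0.09 (adjusted p = 4.2e-05). Rab24, linked to autophagy, was not called (-0.01 and -0.09).

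Regulated secretion had 9 Rabs, of which 8 were tested. None rose, 2 fell in wild-type cells (Rab3d and Rab37) and 3 in knockout cells (also Rab27a), with medians of -0.20 and -0.16. These falls were 25% and 37.5% of those tested. Over all genes 26.7% and 33.2% fell, with medians of -0.05 and -0.08. Rab3d sits on secretory granules, for example of exocrine glands and mast cells. Its level in wild-type cells was 8.70, 8.48, 8.74, 8.90 and 8.92 untreated and 7.98, 7.85, 7.84, 7.91 and 7.92 with IL-33. In knockout cells it was 8.77, 8.57, 8.69, 8.58 and 8.69 untreated and 7.83, 7.88, 7.66, 7.90 and 7.90 with IL-33. All treated arrays were below all untreated arrays, and Rab3d fell by 0.85 ± 0.08 (1.81-fold, adjusted p = 2.5e-08) and by 0.83 ± 0.08 (1.77-fold, adjusted p = 2.7e-08).

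Rab37, also a granule Rab of mast cells and of cytokine secretion in macrophages, had wild-type levels of 8.37, 8.51, 8.34, 8.31 and 8.57 and, with IL-33, 7.62, 7.68, 7.75, 7.72 and 7.81. Its knockout levels were 8.42, 8.54, 8.28, 8.65 and 8.71 untreated and 7.66, 7.80, 7.46, 7.87 and 7.87 with IL-33. Again no array overlapped, and Rab37 fell by 0.70 ± 0.09 (adjusted p = 3.4e-06) and by 0.79 ± 0.09 (adjusted p = 4.7e-07).

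Rab27a docks granules at the plasma membrane and is the gene mutated in ashen mice and in human Griscelli syndrome. It read 6.62, 6.59, 5.84, 6.27 and 6.41 in untreated and 6.02, 6.48, 5.53, 5.72 and 5.78 in treated wild-type cells. In knockout cells it read 6.56, 6.71, 6.43, 6.60 and 6.57 untreated and 6.18, 6.38, 5.33, 6.14 and 5.85 with IL-33. Replicates spread more than for Rab3d, the wild-type groups overlapped widely, the knockout groups did not overlap, and IL-33 knockout array 3 was the lowest of all. All 5 mice of each genotype were lower with IL-33. The change was -0.44 ± 0.19 in wild-type cells (adjusted p = 0.0631) and Rab27a fell by 0.60 ± 0.19 in knockout cells (adjusted p = 0.0109). The knockout call was lost after quantile normalization (adjusted p = 0.0592). With the mouse as a block the wild-type change passed as well (adjusted p = 0.0062 with a random block, which called 56.9% of all genes, and 0.0034 with a fixed one). It also passed without untreated wild-type array 3 (0.0180), IL-33 wild-type array 2 (0.0125) or IL-33 knockout array 3 (0.0326).

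Rab27b, the second granule-docking Rab, read 5.18, 5.15, 4.82, 4.47 and 5.22 in untreated and 5.30, 5.18, 5.17, 4.81 and 4.99 in treated wild-type cells. Knockout cells read 5.02, 4.86, 5.15, 5.09 and 5.03 untreated and 5.06, 4.85, 5.16, 4.75 and 4.75 with IL-33. The groups overlapped, and the changes of 0.12 ± 0.13 and -0.12 ± 0.13 passed in neither genotype (adjusted p = 0.472 and 0.466). Rab44, a large Rab with calcium-binding EF hands that takes part in mast cell degranulation in mice, had wild-type levels of 8.67, 8.90, 9.24, 8.85 and 8.89 untreated and 8.60, 8.68, 8.88, 8.66 and 8.77 with IL-33. Its knockout levels were 8.86, 8.89, 8.73, 9.01 and 8.88 untreated and 8.63, 8.68, 8.70, 8.91 and 8.94 with IL-33. The groups overlapped here too. Rab44 changed by -0.19 ± 0.09 in wild-type cells (adjusted p = 0.102) and -0.10 ± 0.09 in knockout cells (adjusted p = 0.376). The wild-type change passed with the mouse as a block (adjusted p = 0.0160 random, 0.0129 fixed) and without untreated wild-type array 1 (0.0354). Rab26, Rab3a and Rab3b were not called in either genotype, with changes of -0.20 to 0.16. In knockout cells the random block called Rab3a (-0.20, adjusted p = 0.0498) and Rab3b (0.16, 0.0464), and the fixed block neither (0.0725 and 0.101).

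Of the 4 remaining Rabs 3 were tested, and these fell in wild-type cells. In knockout cells 2 of the 3 fell, and over all genes 26.7% and 33.2% were lower. Rab28, found at the base of cilia, fell by 0.23 ± 0.06 (adjusted p = 0.00263) and by 0.39 ± 0.06 in knockout cells (adjusted p = 9.4e-06). Rab40c, a subunit of a ubiquitin ligase, fell by 0.21 ± 0.07 (adjusted p = 0.0260) and by 0.34 ± 0.07 (adjusted p = 4.9e-04). The wild-type call of Rab40c was lost without untreated array 1 (adjusted p = 0.0616) or IL-33 array 3 (0.0823) and after quantile normalization, where its change was -0.14 (0.111). Rab23, a negative regulator of hedgehog signalling, was at least 1.14-fold lower in wild-type cells with IL-33 (adjusted p = 0.00705), a bound because its treated mean of 3.55 lay below the 40th percentile. In knockout cells its change was -0.19 (adjusted p = 0.0828, 0.0282 with the random and 0.0595 with the fixed mouse block).

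The second question was whether loss of Dusp5 alters the Rab genes. In untreated cells no Rab gene was called, beside 0.0255% of all genes (3 genes, 0.017% higher and 0.0085% lower). The Rab genes with the lowest p in limma were Rab39, Rab14, Rab19 and Rab7. All were higher in knockout cells, each with an adjusted p of 0.383, and none passed. Rab14, of traffic between the Golgi and endosomes, was the 1 Rab gene whose groups did not overlap (4.00 to 4.79 in wild-type and 4.83 to 5.06 in knockout cells), as were 1.10% of all genes.

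After IL-33, Rab20 and Rab10 were called higher in knockout cells and none lower, which is 4.00% of the Rab genes beside 2.21% of all genes (0.986% higher, 1.22% lower). Rab20 averaged 7.62 ± 0.21 in wild-type and 8.12 ± 0.26 in knockout cells (SD, n = 5), a difference of 0.50 ± 0.13 (1.42-fold, adjusted p = 0.0454). Knockout arrays 1 and 3 (7.90 and 7.82) lay below wild-type array 2 (7.95). Rab10 averaged 9.34 ± 0.18 and 9.65 ± 0.08, a difference of 0.32 ± 0.08 (1.25-fold, adjusted p = 0.0483), and knockout arrays 1 and 3 (both 9.58) lay below wild-type array 2 (9.63). Both adjusted p-values were close to the threshold. The Rab20 call held without untreated wild-type array 2 or 3, untreated knockout array 1 or 3, IL-33 wild-type array 2 or IL-33 knockout array 1, and was lost in the other 14 of 20 fits (adjusted p up to 0.117). The Rab10 call held without untreated wild-type array 2 or 3, untreated knockout array 1, IL-33 wild-type array 2 or IL-33 knockout array 1, and was lost in the other 15 (up to 0.129). A fit of the 2 IL-33 groups alone also lost both (adjusted p = 0.113 and 0.118). Without the dim-gene filter both were lost as well (0.0604 and 0.0701), and Rab10 after quantile normalization (0.0580). With the mouse as a random block both calls held (0.0406 for Rab20 and 0.0350 for Rab10). The share of all genes which that block called in this comparison was not counted. With IL-33 wild-type array 2 left out, 4 Rab genes were called higher and 1 lower. The share of all genes called in that fit was not counted. Of all marker genes 1, a stem and progenitor marker, was called in this comparison, lower in knockout cells, and its part was not tested.

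No other Rab gene was called between the genotypes after IL-33. Of those not called, Rab19 came nearest (0.34, adjusted p = 0.0784). Rab38 had the largest difference (-0.63 ± 0.30, adjusted p = 0.198), and for it wild-type array 3 alone reached 10.04. Rab11b was the 1 Rab gene whose groups did not overlap (5.84 to 6.13 in wild-type, 6.14 to 6.32 in knockout cells), as were 3.32% of all genes, and it did not pass (0.21, adjusted p = 0.135). For the granule Rabs the differences were -0.06 for Rab3d, 0.01 for Rab37, 0.07 for Rab27a, -0.18 for Rab27b and 0.06 for Rab44, none called.

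The third comparison tested whether the IL-33 response itself differed between genotypes. In limma without a mouse term no Rab gene and no other gene was called (0% of 11766 genes). Rab20 came nearest. Its rise was larger in knockout cells by 0.69 ± 0.18 (95% interval 0.31 to 1.07, adjusted p = 0.607). Within mice the rise of Rab20 ran from 1.64 to 2.27 in wild-type and from 2.20 to 2.68 in knockout mice, so the ranges overlapped slightly.

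The untreated and treated arrays of a number were taken to come from the same mouse, an inference described with the processing. With the mouse as a random block Rab20 passed this test (adjusted p = 0.0346, rank 13 by p of 26 genes called, 0.221% of all genes). With the mouse as a fixed block it did not (adjusted p = 0.116). Leaving out both arrays of 1 mouse, the random-block difference ran from 0.63 to 0.79 and was called in 2 of 10 fits, those without wild-type mouse 2 or knockout mouse 1 (adjusted p 0.0118 to 0.116 over the 10). The call thus changed with the choice of block and with the mice kept. Each of the 10 fits also had fewer arrays, and the part of this in the lost calls was not tested.

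Rab7b was the 1 Rab gene whose change within mice did not overlap between genotypes (-1.60 to -1.38 in wild-type, -2.03 to -1.70 in knockout mice), and 3.49% of all genes showed no such overlap. Its difference of -0.40 ± 0.17 had adjusted p = 0.936, and 0.125 with the random block. Rab21 had a difference of -0.20 (adjusted p = 0.999). For Rab10 the difference was 0.18 ± 0.12 (adjusted p = 0.999).

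**Figure D3:**
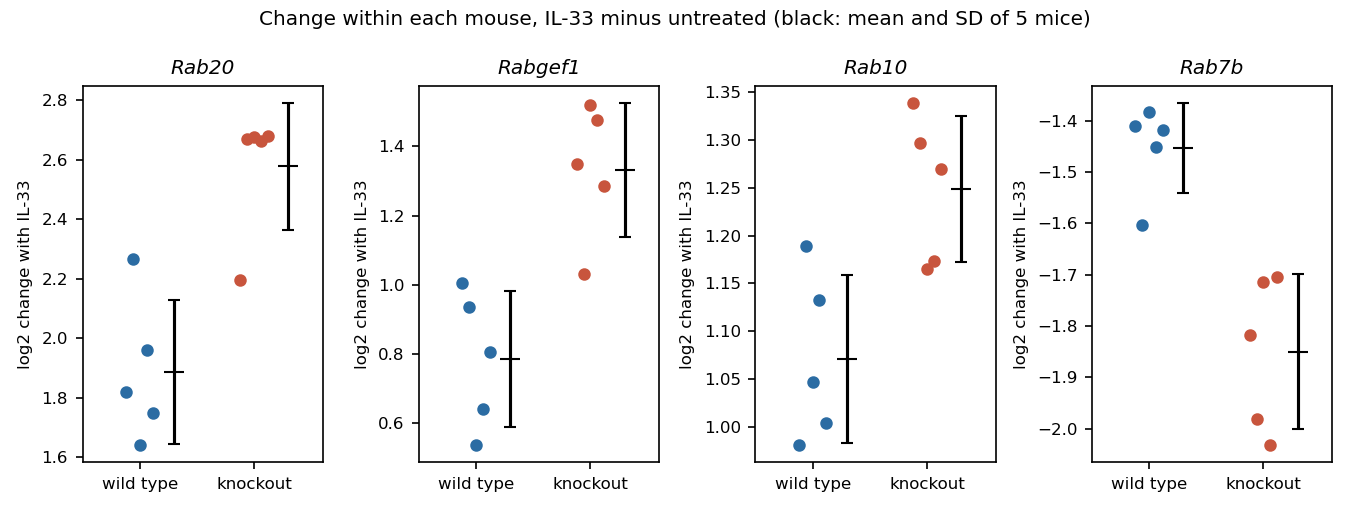
Change with IL-33 within each mouse (log2, IL-33 array minus untreated array of the same mouse) for Rab20, Rabgef1, Rab10 and Rab7b, 5 wild-type and 5 knockout mice each, with the mean as a line. The 2 genotypes overlap slightly for Rab20 (2.27 against 2.20) and do not overlap for Rabgef1 or Rab7b.

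The proteins that switch, anchor and read the Rabs were followed through 5 lists with 123 genes, of which 113 were on the table and 99 were tested. In wild-type cells 18 rose and 42 fell (60.6% called, against 42.7% of all genes), and in knockout cells 16 rose and 51 fell (67.7%, against 52.2%). Their median change was -0.14 and -0.25. After further quantile normalization the counts were 21 and 33 in wild-type and 20 and 38 in knockout cells. The share of rises among partner calls thus went from 30.0% to 38.9% and from 23.9% to 34.5%. Over all genes called, the same share went from 37.6% to 45.1% in wild-type and from 36.3% to 45.3% in knockout cells.

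Among 31 GEFs 9 rose and 13 fell in wild-type cells, and 5 rose and 18 fell in knockout cells. Thus 71% and 74.2% of the GEFs were called, against 42.7% and 52.2% of all genes. Rabgef1, the GEF of Rab5 and Rab21 also known as Rabex-5, read 6.06, 6.20, 6.11, 6.31 and 5.87 untreated and 7.07, 7.13, 6.65, 6.95 and 6.68 with IL-33 in wild-type cells. In knockout cells it read 6.07, 6.19, 6.02, 6.07 and 6.33 untreated and 7.42, 7.22, 7.54, 7.54 and 7.62 with IL-33. Treated arrays were above untreated ones throughout, and after IL-33 every knockout array was above every wild-type array. Rabgef1 rose by 0.78 ± 0.11 (adjusted p = 5.6e-06) in wild-type and 1.33 ± 0.11 (adjusted p = 2.4e-09) in knockout cells. It was the 1 partner called between genotypes, higher after IL-33 in knockout cells by 0.57 ± 0.11 (adjusted p = 0.0116). That call was lost when the 2 IL-33 groups were fitted alone (adjusted p = 0.0654) and held with the random mouse block (0.0155). The difference between the 2 responses of Rabgef1 was 0.55 ± 0.15 (adjusted p = 0.669, 0.0480 with the random and 0.116 with the fixed mouse block). Without both arrays of 1 mouse, the random-block call held in 2 of 10 fits, those without wild-type mouse 2 or knockout mouse 2 (adjusted p up to 0.128).

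In all, 18 of the 31 GEFs were called in both genotypes, 5 higher and 13 lower, beside 4577 of all 11766 genes. Besides Rabgef1, 4 had the largest changes in each genotype. Rab3il1, a GEF of Rab8 and partner of Rab3a, rose by 1.20 and 1.06, and Sh3bp5, a GEF of Rab11, by 1.08 and 0.99. Rin2, a GEF of Rab5, had changes of -0.87 and -1.09, and Ankrd27, a GEF of Rab21 that also binds Rab32 and Rab38, of -0.83 and -0.92. The adjusted p of these 4 ran from 5.0e-09 to 2.3e-04.

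GAPs mostly fell. Of 29 tested, 17 fell and 2 rose in wild-type cells, and 18 fell and 2 rose in knockout cells, with medians of -0.28 and -0.37. The share called was 65.5% and 69%, against 42.7% and 52.2% of all genes. Over all genes 26.7% and 33.2% fell and 16.1% and 18.9% rose, with medians of -0.05 and -0.08. The changes in wild-type and knockout cells were -1.01 and -1.20 for Tbc1d15, -1.08 and -1.10 for Tbc1d2 and -0.90 and -1.09 for Tbc1d5, all GAPs of Rab7. Evi5, a GAP of Rab11, had -0.96 and -1.10, and Tbc1d4, a GAP of Rab10, -0.93 and -0.93. The 2 that rose in each genotype, named after their values were seen, were Tbc1d10a, a GAP of Rab27a and Rab35 (0.20 and 0.30), and Usp6nl, a GAP of Rab5 (0.23 and 0.35).

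Of 6 genes for lipid attachment and membrane extraction, Chml, a Rab escort protein, rose by 0.96 (adjusted p = 8.6e-05) and 0.99 (adjusted p = 4.2e-05). Its paralog Chm was not called (-0.15 and -0.03). Gdi2, which takes GDP-bound Rabs off membranes, fell by 0.41 ± 0.14 (adjusted p = 0.0199) and by 0.38 ± 0.14 (adjusted p = 0.0232). In wild-type cells the Gdi2 call needed arrays 1 and 2 of the untreated and array 3 of the treated cells (up to 0.0652), and in knockout cells arrays 4 and 5 of the untreated cells (up to 0.0703). Rabac1, a receptor for prenylated Rabs, fell by 0.27 ± 0.08 and by 0.35 ± 0.08, and Rabggta, a subunit of the Rab prenylating enzyme, fell by 0.27 ± 0.08 in knockout cells (adjusted p = 0.00586). Its wild-type change of -0.18 (adjusted p = 0.0601) passed with the mouse as a block (adjusted p = 0.0117 random, 0.0240 fixed).

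Among 7 tested effectors of secretion, Sytl1 and Unc13d fell in both genotypes. Of this list 28.6% and 42.9% were called, against 42.7% and 52.2% of all genes. Sytl1, a synaptotagmin-like effector of Rab27, read 8.33, 8.74, 7.86, 8.36 and 8.10 untreated and 7.44, 7.72, 6.68, 7.34 and 7.26 with IL-33 in wild-type cells, and 8.44, 8.81, 8.53, 8.80 and 8.71 untreated and 7.31, 7.68, 7.36, 7.71 and 7.43 with IL-33 in knockout cells. Each group of treated arrays lay below its untreated group. Sytl1 fell by 0.99 ± 0.16 (adjusted p = 6.6e-05) and by 1.16 ± 0.16 (adjusted p = 7.0e-06). Unc13d, the Rab27 effector that primes granules for fusion, read 8.82, 9.14, 9.04, 9.07 and 9.13 and, with IL-33, 8.38, 8.33, 8.32, 8.38 and 8.49 in wild-type cells, and 8.89, 9.10, 9.01, 9.19 and 9.12 untreated and 8.28, 8.38, 8.23, 8.46 and 8.57 with IL-33 in knockout cells. It fell without overlap in both genotypes, by 0.66 ± 0.08 (adjusted p = 1.0e-06) and 0.68 ± 0.08 (adjusted p = 4.6e-07). Rims1, a Rab3 effector whose untreated mean lay below the 40th percentile, was at least 1.13-fold higher with IL-33 in knockout cells (adjusted p = 0.0373). That call was lost without untreated knockout array 2 or 5 or IL-33 knockout array 1, 3 or 4 (adjusted p up to 0.122).

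Of 26 effectors of endosomes and the Golgi 6 rose and 8 fell in wild-type cells, and 7 rose and 10 fell in knockout cells. These calls made up 53.8% and 65.4% of the list, against 42.7% and 52.2% of all genes. Rab11fip4, a Rab11 effector, had changes of -1.49 and -1.49, and Rilpl1, an effector of Rab8 and Rab10, of -1.39 and -1.67. Its relative Rilpl2 rose by 0.88 and 0.77. Micall2, an effector of Rab8 and Rab13, changed by -0.96 and -1.32, and Mical1, which oxidises actin, by -0.87 and -0.95. All 5 passed in both genotypes, with adjusted p from 9.2e-10 to 6.5e-06.

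**Figure D4:**
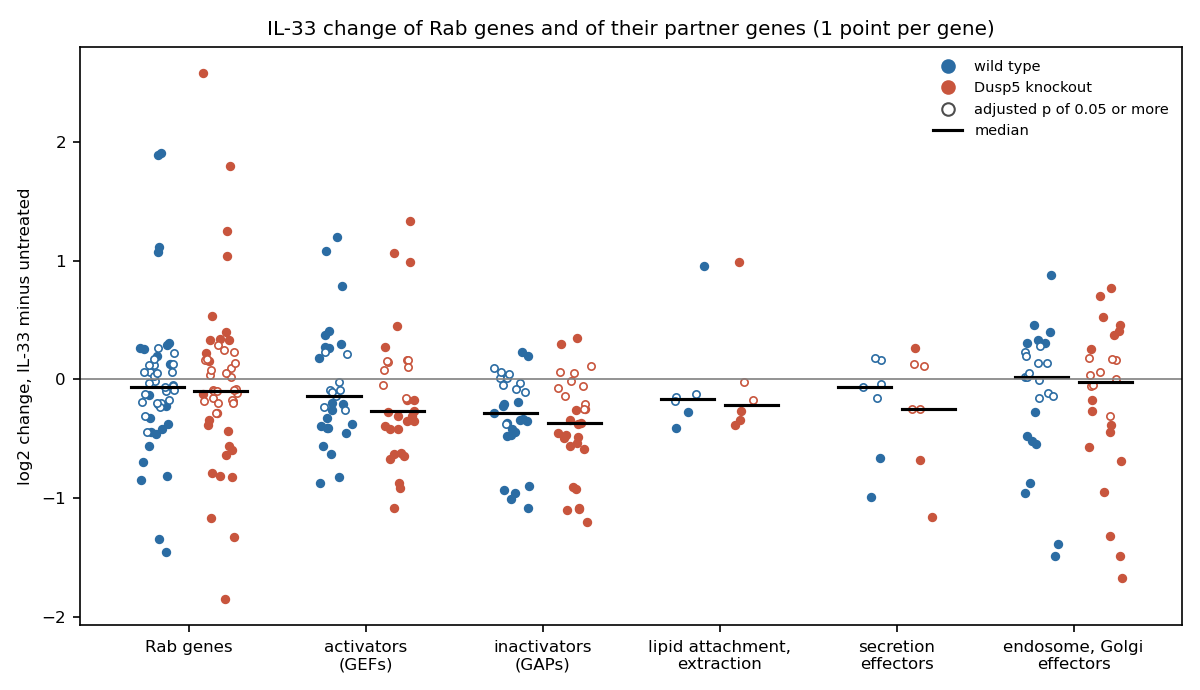
Change with IL-33 (log2) of the tested Rab genes and of the 5 lists of Rab partners in wild-type and knockout cells, 1 point per gene with the median as a line. The points of the GAP list lie mostly below 0 (medians -0.28 and -0.37), and those of the Rab genes spread to both sides (medians -0.06 and -0.10).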

How the data were processed

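Per the labels' protocols, biotin-labelled cRNA was made from total RNA (Affymetrix). The authors deposited 1 table of log2 values, 20630 probe sets by 20 arrays; its background correction, summarization and scaling are not stated there. Gene names came from the platform annotation: 17826 probe sets had 1 symbol, 91 several and 2711 none, and 17675 matched a RefSeq gene table (GRCm38.p6). For 54 genes with several probe sets the one with the highest mean was used. A gene was tested when above its array's 40th percentile on at least 5 arrays (11766 genes). All arrays entered a limma 3.58.1 model (R 4.3.3) with 1 mean per group and 16 residual degrees of freedom. Adjusted p is Benjamini-Hochberg over all genes tested, and calls were made at 0.05. The wild-type IL-33 comparison without a mouse block was tried on simulated data with independent noise on each array. The blocked fits and the genotype comparisons were not checked in this way. Within a genotype, the treated and untreated array of each number correlated (0.262 to 0.783) in their deviations from the group means, all 10 mice best with their own number, and the series text gives 5 mice per genotype, so the number was taken as the mouse.

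Values on every array are given for Rab genes called between genotypes, those called with IL-33 with a change of at least 0.5, and Rab27a, Rab27b, Rab3d, Rab5a, Rab7, Rab11a, Rab37 and Rab44. From each partner list the text names up to 4 called genes with the largest change per IL-33 comparison, up to 3 per genotype comparison and up to 2 not called. Members, lists and rules were chosen with earlier results of these data known. Alternatives covered the dim-gene filter, quantile normalization, the choice of probe set, fits of the compared groups alone, the mouse as a fixed or random block and leaving out each array. Leaving out both arrays of a mouse under the random block was added after seeing the data. Signals of different probe sets are not comparable in level, and whether a probe set also binds a close paralog was not tested.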

Additional observations from a re-analysis of the deposited data

Results flagged for a closer look

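Among 76 sets of 5 arrays of the Rab genes described on every array, 2 held an array far from the other 4, where chance would give 3.8. For Rab19, IL-33 wild-type array 2 read 6.46, and the nearest of the others 6.21. For Rab10, untreated knockout array 1 read 8.24, and the nearest of the others 8.42.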

How the results depend on the processing

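No Rab gene that was called with IL-33 changed direction under any alternative run. Of the genotype counts after IL-33, the 2 Rab genes called higher became 0 without the dim-gene filter, 1 after quantile normalization and 0 when the compared groups were fitted alone. The 1 partner called higher became 0 in the last of these, and the 0 called lower became 1 with the filter at the 60th percentile. With the mouse as a random replicate block, 1 Rab gene (Rab20) and 1 partner (Rabgef1) were called in the difference of responses, against 0 as reported and 0 with a fixed block; which block is the better one was not tested. The random block gave 11 Rab genes higher and 18 lower in wild-type and 14 and 17 in knockout cells, and the fixed block 12 and 19, and 15 and 16. Over all genes the random block called 56.9% in wild-type and 65.4% in knockout cells, and the share with the fixed block was not counted. In the IL-33 comparisons neither block lost a call of a Rab gene or partner. The random block gained 5 Rab genes and 8 partners in wild-type and 6 and 10 in knockout cells, and the fixed block 7 and 7, and 6 and 10. Leaving out each array in turn gave 7 to 10 Rab genes higher and 12 to 16 lower in wild-type cells, and 10 to 12 and 12 to 15 in knockout cells. For partners these were 13 to 19 and 35 to 42, and 14 to 16 and 45 to 52. After IL-33 the genotype counts ran from 0 to 4 Rab genes higher, 0 to 1 lower, 1 to 4 partners higher and 0 to 7 lower, and they stayed at 0 in untreated cells and in the difference of responses. The shares of all genes called in the fits with 1 array left out were not counted. Reversals concerned uncalled changes near 0. With 1 array left out, Rab11a ran from -0.12 to 0.029 in wild-type cells (above 0 without untreated array 2 and, at 0.011, without treated array 3) and from -0.028 to 0.057 in knockout cells (below 0 without untreated array 1, at -0.021 without untreated array 3 and at -0.0064 without treated array 2). Rab27b in wild-type cells ran from -0.0033 (without untreated array 4) to 0.19. The Rabgef1 difference in untreated cells ran from -0.034 (without wild-type array 5; -0.024 without knockout array 5) to 0.074. Fitting the compared groups alone, with fewer arrays, lost the wild-type calls of Rab11b (adjusted p = 0.0638), Rab40c (0.0672), Rab5a (0.113), Rab5c (0.1202), Rab7 (0.0920) and Gdi2 (0.0540) and the knockout calls of Rab5b (0.0546) and Rab5c (0.0828), and gained Rab7 in knockout cells (0.0487). Testing all genes without the filter lost Rab5a (0.0866), Rab5c (0.0889) and Rab7 (0.0594) in wild-type and Rab15 (0.0574), Rab5c (0.0776) and Rims1 (0.0505) in knockout cells. Quantile normalization lost Gdi2 (0.0547), Rabggta (0.217) and Rims1 (0.0899) in knockout cells, and the 60th percentile gained Rab7 there (0.0400); the cause was not tested. The table gives no background level, so the 8 untested Rab genes and changes of members near the 40th percentile cannot be judged.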
